A study of Mus musculus with 8 samples.

Results

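The genes described here are 40 members of the BMP and TGF-beta pathway in the posterior part of the second heart field (pSHF) of mouse embryos at E9.5. They were chosen by name, as every spot of the array other than a control whose gene name was one of the 40 symbols, which gave 63 probes out of 41174 probes with 27827 gene names. All 40 were on the array. A probe was tested when every array of 1 group or of both had it marked as well above background by the scanner software. By this filter 47 probes of 33 members were tested and 7 members were not, beside 20028 probes of 13949 genes on the whole array.

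The study compared the pSHF of embryos with 1 mutated Tbx5 allele (Tbx5-/+, 4 arrays) with that of wild-type embryos (4 arrays), to find transcripts that depend on the dose of Tbx5, a T-box transcription factor of the heart field. The mutant line was kept on a mixed background, the mothers of the embryos had received gonadotropins before mating to enlarge the litters, and the thoracic piece had been freed of the neural tube and cut between outflow and inflow tract. Each array held 1 pool of RNA from such pieces, with the number of embryos in a pool not given in the sources used here. The titles give both groups the numbers 1, 5, 6 and 7 and place numbers 1 and 5 on array 1 and numbers 6 and 7 on array 2. Nothing in the labels tells whether pools with the same number share a litter, and the p-values measure the spread between these pools. The labels name no tissue-specific driver of the mutation. In such bulk tissue, fewer cells of a type and less RNA per cell cannot be told apart.

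BMP and TGF-beta ligands are secreted dimers that bring together type I and type II serine-threonine kinase receptors. The type II receptor phosphorylates the type I receptor, which in turn phosphorylates receptor Smads. These join the common Smad, Smad4, and enter the nucleus to regulate genes, among them the inhibitory Smads that shut the pathway off and the Id and Msx genes. Secreted antagonists such as noggin bind ligands outside the cell. In the heart, this signalling is known for its part in the second heart field, in the mesenchyme at the venous pole and in the formation of the endocardial cushions.

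Each value below is a level on the log2 scale after variance stabilization (VSN), and each difference is Tbx5-/+ minus wild-type on that scale, from the brightest tested probe of a gene unless another is named. Tbx5 itself was measured first, as a check of the labels. Its level was 9.01, 9.73, 9.16 and 8.62 in Tbx5-/+ 1, 5, 6 and 7 and 11.47, 11.56, 10.42 and 11.54 in wild-type 1, 5, 6 and 7, so that every Tbx5-/+ array lay below every wild-type array. The share of spots well above background was 45.0% to 52.8% in Tbx5-/+ and 50.9% to 63.6% in wild-type. Tbx5-/+ 1 stood apart: on the leading principal component of the tested probes, which held 56.9% of the variance, it scored -37.2 among the wild-type arrays (-52.4 to -10.0), and the other Tbx5-/+ arrays scored 26.1 to 112.1. The mean level of probes nearer the 3′ end of a transcript minus that of probes at least 500 bases further 5′, over 2716 genes with both, was 1.82, 1.97 and 1.88 in Tbx5-/+ 5, 6 and 7, 1.47 in Tbx5-/+ 1 and 1.41 to 1.58 in wild-type. The groups differed by 0.29 in this 3′ minus 5′ gap (exact two-sided permutation test, p = 0.114). Of 8 genes listed as markers of the pSHF all were tested and 4 had an unadjusted limma p under 0.05, Tbx5, Foxf1a, Osr1 and Hoxb1, all lower in Tbx5-/+. The other 4 differed in the other direction, Isl1 by 0.35, Nr2f2 by 0.55, Wnt2 by 0.06 and Aldh1a2 by 0.02. The log2 sum of the list was 14.75 to 17.26 in Tbx5-/+ and 15.90 to 16.36 in wild-type. Of 8 endothelial markers, 3 (Kdr, Pecam1 and Tie1) were lower by the same measure, and the log2 sum of that list was 14.18 to 14.61 in Tbx5-/+ and 14.54 to 14.85 in wild-type. The others on the list differed by -0.42 (Tek), -0.38 (Flt1), 0.14 (Cdh5), 0.21 (Emcn) and 0.01 (Esam). Of 12 cardiomyocyte and 10 foregut endoderm markers 0 passed. Of 8 liver bud genes, 6 were tested and 1, Prox1, was lower. The sum of that list was 12.83 to 16.99 in Tbx5-/+ and 14.17 to 16.51 in wild-type. Of the markers tested for primitive erythrocytes (7 of 8), neural tube (4 of 8) and somite (4 of 6), 0 had an unadjusted limma p under 0.05 in either direction. The part of these differences between the arrays in the results below was not tested.

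Probes are printed for the members the results turn on, since several genes gave different answers at different places of the transcript. The stretches are the first 30 of 60 bases of each probe, 5′ to 3′ as the scanner files give them, with the mm9 position of the whole probe.
Bmp4, A_51_P383741, chr14:47003802-47003861: gtccaggaagaagaataagaactgccgtcg
Tgfb2, A_51_P317640, chr1:188447534-188447593: tcatccattatttccctgatttcattgaaa
Inhba, A_51_P239750, chr13:16118634-16118693: tcaacatttgctgtaagaaacagttctttg
Smad1, A_51_P409260, chr8:81863418-81863474: atggagacctgacgaaggagccacgataat
Smad1, A_52_P65108, chr8:81863015-81863074: ttaaagtacaggttaatcgttatgacatgc
Smad3, A_52_P352277, chr9:63495131-63495190: cagaactgatgtttagcattctgccgcttt
Smad3, A_51_P441022, chr9:63497492-63497551: cgctgaaggtcagcgtataggtgatgtaca
Smad6, A_51_P427926, chr9:63801378-63801437: acagtgtgcgcatcagcttcgccaagggct
Smad5, A_51_P107599, chr13:56843557-56843616: tgctgcttacggcataggaaagtacactag
Smad5, A_51_P452207, chr13:56840572-56840631: tcagctccatgagagagatgtctgctttat
Id2, A_52_P240542, chr12:25778904-25778963: tgagtgaaccttgtggactctttaattaga
Id2, A_51_P219074, chr12:25780183-25780530: caggcatctgaattcccttctgagcttatg

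The first question was how many members differed between the groups. With limma, 0 of 33 members passed an adjusted p of 0.05, as did 0 of 13949 genes (0%), and the smallest adjusted p of a member was 0.0959 (Tgfb2). At an unadjusted limma p under 0.05, 7 members (21.2%) were lower in Tbx5-/+, beside 15.4% of all genes tested, and 0 members were higher, beside 4.11%. These were the ligands Bmp4, Tgfb2 and Inhba, the receptor Smads Smad1 and Smad3 and both inhibitory Smads, Smad6 and Smad7. Inhba, Bmp2 and Nog passed the background filter only through the wild-type arrays. With the filter set to all 8 arrays, 6 of 30 members were lower, the same without Inhba, beside 15% of genes. In 4 members (12.1%) the groups did not overlap, with Tbx5-/+ lower throughout, beside 7.66% of genes, and in 0 members Tbx5-/+ was higher throughout, beside 0.918%. With the processed signals scaled to their 75th percentile these were 3 and 2 members, beside 2.62% and 11.3% of genes. Without Tbx5-/+ 1 they were 9 and 4 members, beside 2480 and 2625 of 13949 genes. Differences below 0 were found for 24 of 33 members (72.7%) and for 61.1% of genes. The median difference was -0.33 for the members and -0.13 for all genes, a distance of -0.20 between the medians that shrank to -0.10 without Tbx5-/+ 6 and in the authors' table and to -0.11 without wild-type 1. With no filter on dim probes the medians of members and genes were -0.30 and 0.08. With the 3′ minus 5′ gap as a covariate both were -0.17.

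The scaling of the arrays moved the median of all genes, to 0.18 when the processed signals were scaled to their 75th percentile and to 0.02 with quantile normalization, and the members' median followed it to -0.03 and -0.12. At an unadjusted p under 0.05, 5 members were then lower and 1 higher with percentile scaling (5.95% and 18.2% of genes), and 5 were lower and 0 higher with quantile normalization (7.73% and 10.3% of genes), where it had been 7 and 0 with VSN. Relative to the median of all genes, Tgfb2 differed by -1.17, Smad1 by -1.37, Bmp4 by -0.92 and Smad7 by -0.90 on the VSN scale.

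With the replicate number as a block, which compares the arrays within each number, 6 members passed an adjusted limma p of 0.05 and all were lower in Tbx5-/+: Bmp2, Bmp4, Tgfb2, Inhba, Smad1 and Smad7. Of all genes 8.67% passed. Bmp2 and Inhba had entered the test only through the wild-type arrays, and the other 4 were well above background on all 8. At an unadjusted p the block gave 12 lower members (36.4%), beside 25% of genes. Without Tbx5-/+ 1, the array that stood apart, 7 members passed the adjusted p (21.2%), beside 17.6% of genes, and at an unadjusted p 9 were lower and 4 higher, beside 22.4% and 17.3% of genes. Of the 7, Bmp4, Tgfb2, Smad1, Smad3 and Smad7 were lower, and the receptors Bmpr1a and Bmpr2 were higher. Bmp4, Tgfb2, Smad1 and Smad7 passed in both. Leaving out Tbx5-/+ 1 raised the share of all genes past the adjusted p from 0% to 17.6%. The Tbx5-/+ arrays left had a 3′ minus 5′ gap of 1.82 to 1.97, all above wild-type (1.41 to 1.58). Genotype and this gap cannot be told apart in that comparison. With the 3′ minus 5′ gap as a covariate, 0 members passed, and at an unadjusted p 4 were lower and 2 higher, beside 14.2% and 1.35% of genes. Of the 7 members named above, 2 (Tgfb2 and Smad7) were among them.

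**Figure D1:**
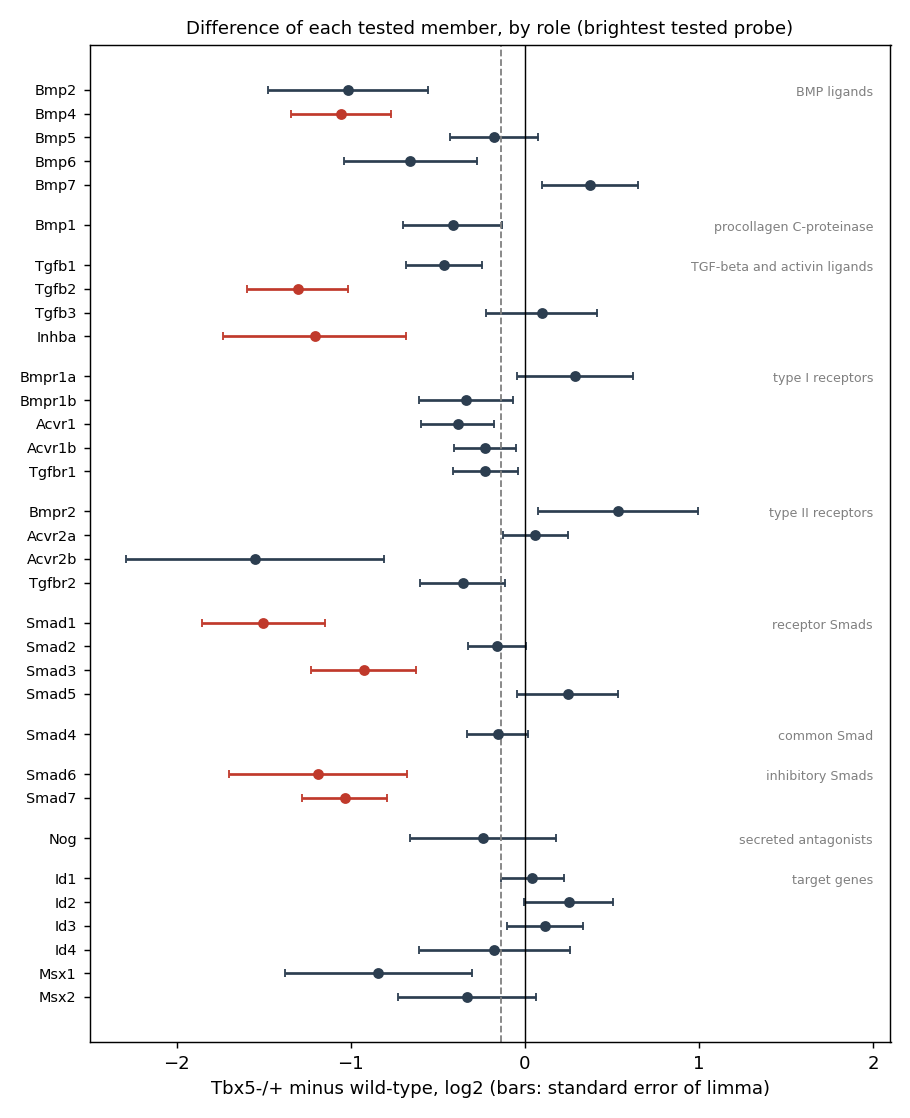
Difference of each of the 33 tested members, Tbx5-/+ minus wild-type on the log2 scale (x axis), by role (y axis); points are the brightest tested probe, bars the standard error from limma, and the dashed line the median of all genes at -0.13. The 7 members in red had an unadjusted p under 0.05 and lie between -1.50 and -0.93, and the others between -1.55 (Acvr2b) and 0.53 (Bmpr2).

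Among the BMP ligands, Bmp4, which is expressed in the second heart field and is required for septation of the outflow tract and the cushions, was lower in Tbx5-/+. Its level was 11.55, 11.39, 10.24 and 11.13 in Tbx5-/+ 1, 5, 6 and 7 and 12.23, 12.22, 11.85 and 12.23 in wild-type 1, 5, 6 and 7. The groups did not overlap, Tbx5-/+ 6 was the lowest array and wild-type 6 the lowest of its group. The means were 11.07 ± 0.59 and 12.13 ± 0.19 (SD, n = 4), a difference of -1.06 (SE 0.29, 2.08-fold, limma adjusted p = 0.122). With the replicate block the limma adjusted p was 0.0348, and over 17 alternatives it ran from 0.0260 to 0.513. The difference was -0.76 on array 1 and -1.36 on array 2, and with the 3′ minus 5′ gap as a covariate it was -0.48 (limma adjusted p = 0.513).

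The other BMP ligands tested were Bmp2, Bmp5, Bmp6 and Bmp7, whose differences ran from -1.02 to 0.37. Bmp2, which like Bmp4 signals to the forming cushions, was at 7.71, 6.90, 5.82 and 6.78 in Tbx5-/+ 1, 5, 6 and 7 and at 8.98, 7.50, 7.47 and 7.31 in the wild-type arrays of the same numbers. Each Tbx5-/+ array lay below the wild-type array of its number, but the groups overlapped through Tbx5-/+ 1, and wild-type 1 was far above the rest of its group. The difference was -1.02 (SE 0.46), with an adjusted limma p of 0.229, of 0.0402 with the replicate block and of 0.0402 to 0.978 over 15 alternatives. Bmp2 was well above background on 3 of 4 Tbx5-/+ arrays, and it took the other sign under 1 alternative, the gap covariate. Bmp6 differed by -0.66 and Bmp5 by -0.18. Bmp7, which is found with Bmp5 and Bmp6 in the same ligand subgroup, differed by 0.37, and its second probe by 0.02. The brighter Bmp7 probe differed by 0.77 with percentile scaling and by 0.58 without wild-type 1. In these alternatives its unadjusted limma p was under 0.05. Bmp3 passed the background mark on 1 array of Tbx5-/+ and 3 of wild-type, and Bmp10, a ligand of the trabecular myocardium, on 0 of 8. Bmp1, which despite its name is a procollagen C-proteinase, differed by -0.42 and by 0.14 at its 2 tested probes.

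Of the TGF-beta and activin ligands, Tgfb2, the TGF-beta of the cushion myocardium and outflow tract, gave the smallest p of any member. Its level was 12.30, 12.12, 11.01 and 12.14 in Tbx5-/+ 1, 5, 6 and 7 and 13.06, 13.47, 13.03 and 13.22 in wild-type 1, 5, 6 and 7. No values overlapped, and Tbx5-/+ 1, the array that stood apart over all probes, was 0.77 below wild-type 1. The means of 11.89 ± 0.59 and 13.20 ± 0.20 (SD, n = 4) differed by -1.31 (SE 0.29, 2.47-fold, limma adjusted p = 0.0959). The limma adjusted p was 0.0336 with the block and 0.0196 to 0.346 over 17 alternatives. The difference was -1.06 on array 1, -1.55 on array 2 and -0.84 with the gap covariate (limma adjusted p = 0.294).

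Inhba encodes the subunit of activin A. Its level was 5.62, 7.32, 5.05 and 6.23 in Tbx5-/+ 1, 5, 6 and 7 and 6.80, 8.53, 6.83 and 6.89 in the wild-type arrays of these numbers. The groups overlapped, although each Tbx5-/+ array lay below the wild-type array of its number, by 0.66 to 1.79. It was well above background on 4 of 4 wild-type arrays but on 1 of 4 Tbx5-/+ arrays, number 5, so that its difference of -1.21 (SE 0.53, limma adjusted p = 0.222) rests on values near background. It was -0.78 without wild-type 5, and its unadjusted limma p was 0.05 or more under 8 of 16 alternatives. With the replicate block the adjusted limma p was 0.0336, and over 16 alternatives it ran from 0.0336 to 0.501. On array 1 the difference was -1.19 and on array 2 -1.22. Tgfb1 differed by -0.46 and Tgfb3 by 0.10, with limma adjusted p of 0.244 and 0.869.

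**Figure D2:**
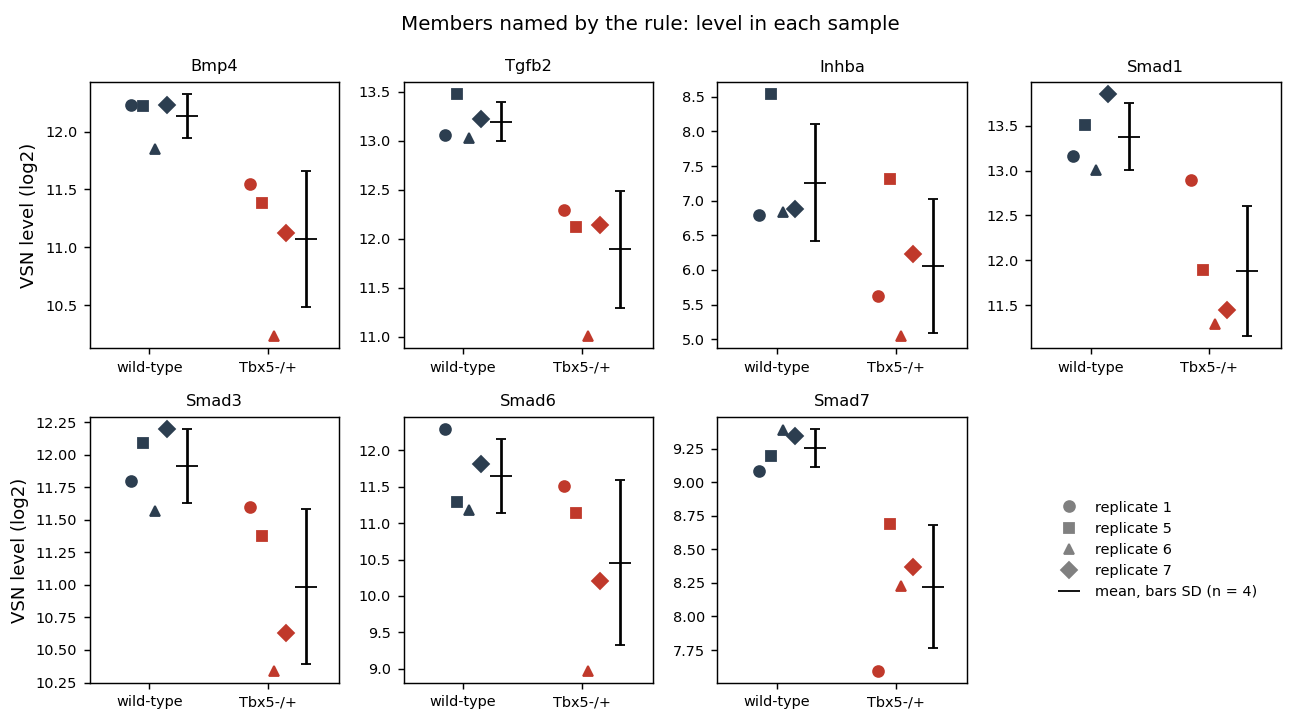
Level in each sample (y axis, log2 after VSN) of the 7 members named by the rule, in wild-type and Tbx5-/+ (x axis); symbols give the replicate number and the black bar the mean and SD of 4 arrays. The groups do not overlap for Bmp4, Tgfb2, Smad1 and Smad7, and Tbx5-/+ 6 is the lowest array for all except Smad7.

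Among the receptors 0 of 9 tested had an unadjusted limma p under 0.05 with all 8 arrays and neither a block nor a covariate. Acvr2b passed it with either block, and Bmpr1a and Bmpr2 passed it with the gap covariate, where they were lower. The 5 tested type I receptors, which carry the signal to the Smads, had differences from -0.39 (Acvr1) to 0.29 (Bmpr1a) and wild-type levels of 7.86 to 12.67. The Bmpr1a level was 11.67 in Tbx5-/+ 1 and 12.88, 13.27 and 13.11 in Tbx5-/+ 5, 6 and 7, against 12.25 to 12.73 in wild-type. Tbx5-/+ 1 thus lay below and the other Tbx5-/+ arrays above all wild-type arrays, and without Tbx5-/+ 1 the difference was 0.64 with a limma adjusted p of 0.0449, within 0.0449 to 0.903 over 16 alternatives. It was -0.63 with the gap covariate. Its second tested probe differed by -0.32.

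The 4 type II receptors, which bind ligand and activate the type I receptors, spanned the whole range of the members. Acvr2b, an activin receptor, was at 12.21, 11.16, 8.06 and 10.23 in Tbx5-/+ 1, 5, 6 and 7 and at 12.49, 12.01, 11.18 and 12.20 in wild-type 1, 5, 6 and 7. The groups overlapped, with an SD of 1.77 in Tbx5-/+ and 0.56 in wild-type, and the difference was -1.55 (SE 0.74, limma adjusted p = 0.245). Within the numbers 1, 5, 6 and 7 it was -0.27, -0.85, -3.12 and -1.97, and with the replicate block the limma adjusted p was 0.0539, within 0.0518 to 0.790 over 16 alternatives. With the gap covariate it took the other sign, at 0.45. Bmpr2, the type II receptor of the BMPs, was at 10.91 in Tbx5-/+ 1, at 12.70, 13.28 and 12.84 in Tbx5-/+ 5, 6 and 7 and at 11.36 to 12.20 in wild-type. As for Bmpr1a, Tbx5-/+ 1 was the lowest array and the other Tbx5-/+ arrays were the highest. The difference was 0.53 with all arrays and 1.04 without Tbx5-/+ 1 (limma adjusted p 0.483 and 0.0296, and 0.0296 to 0.831 over 16 alternatives), and it was -0.83 with the gap covariate. Acvr2a differed by 0.06 and Tgfbr2 by -0.36. Acvrl1, a type I receptor of endothelium, passed the background mark on 0 arrays of Tbx5-/+ and 3 of wild-type, and the coreceptor Tgfbr3 on 0 and 1.

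Smad1, a receptor Smad of the BMP branch, had the largest difference of the members named by the rule. Its level was 12.90, 11.90, 11.29 and 11.44 in Tbx5-/+ 1, 5, 6 and 7 and 13.16, 13.50, 13.00 and 13.85 in wild-type 1, 5, 6 and 7. The groups did not overlap, and Tbx5-/+ 1 was the nearest to wild-type. The means were 11.88 ± 0.73 and 13.38 ± 0.38 (SD, n = 4), a difference of -1.50 (SE 0.35, 2.83-fold, limma adjusted p = 0.0982). The limma adjusted p was 0.0368 with the block, 0.00646 without Tbx5-/+ 1 and 0.00646 to 0.373 over 17 alternatives. The difference was -0.94 on array 1, -2.06 on array 2 and -0.62 with the gap covariate (limma adjusted p = 0.373). The second Smad1 probe, 401.5 bases nearer the 3′ end, differed by -0.32 (SE 0.21), from 9.02 ± 0.33 against 9.34 ± 0.15 (SD, n = 4), and its groups overlapped.

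Smad3, a receptor Smad of the TGF-beta and activin branch, was at 11.60, 11.38, 10.34 and 10.63 in Tbx5-/+ 1, 5, 6 and 7 and at 11.80, 12.09, 11.57 and 12.19 in wild-type 1, 5, 6 and 7. The groups overlapped only through Tbx5-/+ 1 and wild-type 6. The difference was -0.93 (SE 0.30, limma adjusted p = 0.170), and it was -1.13 without Tbx5-/+ 1 (limma adjusted p = 0.0304), within a range of 0.0304 to 0.737 over 17 alternatives. It was -0.45 on array 1, -1.40 on array 2 and -0.29 with the gap covariate. The second Smad3 probe differed by -0.55 without overlap, on 2 of 4 Tbx5-/+ arrays well above background. Smad2, the other receptor Smad of this branch, differed by -0.16.

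Both inhibitory Smads, which are induced by the pathway and block it, were lower in Tbx5-/+ at an unadjusted p. Smad7 was at 7.60, 8.69, 8.23 and 8.37 in Tbx5-/+ 1, 5, 6 and 7 and at 9.08, 9.20, 9.39 and 9.34 in wild-type 1, 5, 6 and 7. The groups did not overlap, and here Tbx5-/+ 1 was the lowest array. The means of 8.22 ± 0.46 and 9.25 ± 0.14 (SD, n = 4) differed by -1.03 (SE 0.24, 2.05-fold, limma adjusted p = 0.0982). The limma adjusted p was 0.0354 with the block and 0.0223 to 0.354 over 17 alternatives. The difference was -1.0 on array 1, -1.07 on array 2 and -1.49 with the gap covariate, and its unadjusted limma p was under 0.05 in each of the 17.

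Smad6 was at 11.52, 11.14, 8.97 and 10.21 in Tbx5-/+ 1, 5, 6 and 7 and at 12.29, 11.29, 11.18 and 11.82 in wild-type 1, 5, 6 and 7. Tbx5-/+ 1 lay within the wild-type range and Tbx5-/+ 6 far below it. The difference of -1.19 (SE 0.51, limma adjusted p = 0.220) was -0.46 on array 1 and -1.91 on array 2. With the gap covariate it took the other sign, at 0.10 (limma adjusted p = 0.954). The unadjusted limma p of Smad6 was under 0.05 in 10 of 17 alternatives, and its limma adjusted p ran from 0.0540 to 0.954 over them.

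**Figure D3:**
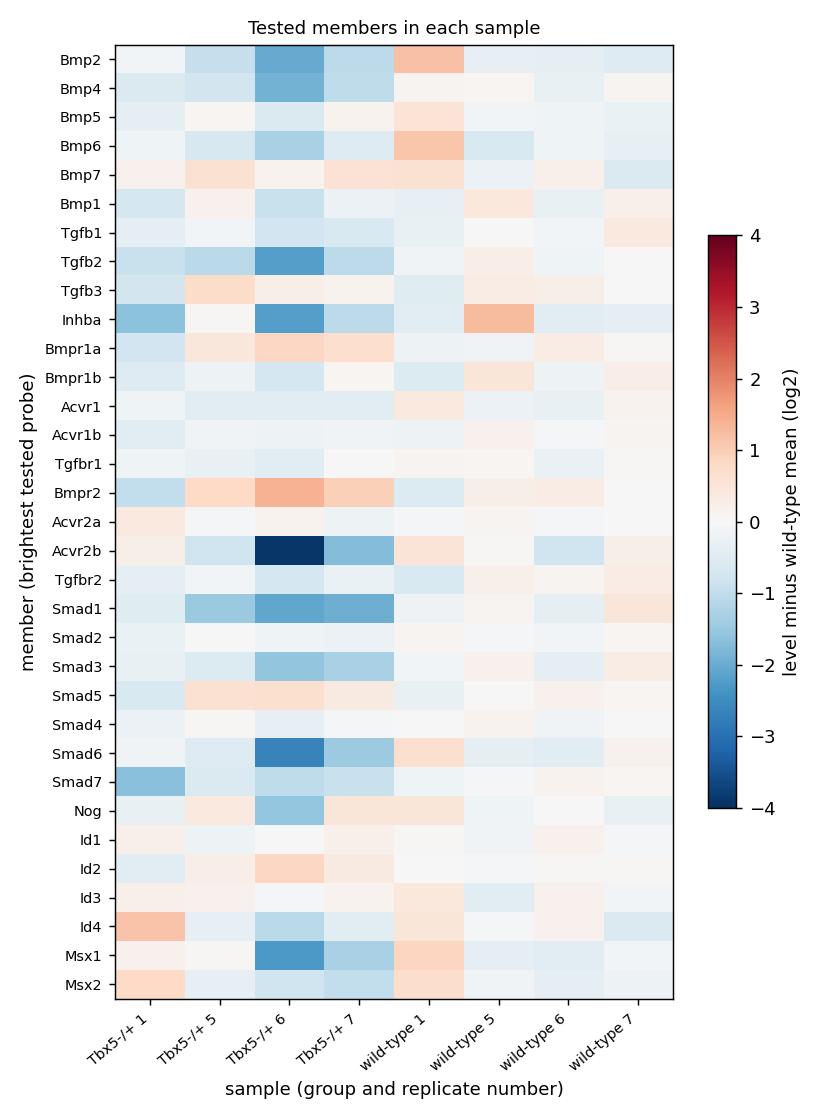
Level of each tested member (rows) in each of the 8 samples (columns) minus its wild-type mean, on the log2 scale; blue is below and red above the wild-type mean. Tbx5-/+ 6 was the lowest of the 8 arrays for 20 of 33 members, and Tbx5-/+ 1 lay within or above the wild-type range for 17.

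For 4 genes, chosen after their values were seen, probes to different places of the same gene gave different results. Smad5, a BMP receptor Smad, was at 12.89, 14.11, 14.13 and 13.85 at its brightest probe in Tbx5-/+ 1, 5, 6 and 7 and at 13.20, 13.53, 13.68 and 13.59 in wild-type 1, 5, 6 and 7, a difference of 0.25 (SE 0.29). At a probe 2985 bases further 5′ it was at 9.26, 7.43, 5.57 and 7.04 in the same Tbx5-/+ arrays and at 9.41, 9.82, 9.13 and 10.11 in the wild-type arrays, a difference of -2.29 (SE 0.64, limma adjusted p = 0.127). In Tbx5-/+ 5, 6 and 7 the former probe was above, and the latter below, every wild-type value. The latter was well above background on 3 of 4 Tbx5-/+ arrays. The third tested probe, 4553 bases 5′ of the brightest, differed by -0.35. Without Tbx5-/+ 1 the brightest probe differed by 0.53 (limma adjusted p = 0.0639) and the second by -2.94. The difference between the first and second probe was 6.42 ± 2.05 in Tbx5-/+ and 3.88 ± 0.46 in wild-type (SD, n = 4), and the groups overlapped (exact two-sided permutation test, p = 0.114).

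Smad4, the common Smad of both branches, differed by -0.16 (SE 0.17) at its brightest probe, where it lay between 14.39 and 14.85 on all 8 arrays. The midpoint of its second probe lay 70.5 bases away, and which probe is nearer the 3′ end was not determined. This second probe was at 11.05, 9.75, 7.93 and 9.48 in Tbx5-/+ 1, 5, 6 and 7 and at 11.57, 11.39, 10.53 and 11.12 in wild-type 1, 5, 6 and 7, a difference of -1.60 (SE 0.55, limma adjusted p = 0.183). Here Tbx5-/+ 5, 6 and 7 lay below all wild-type arrays and Tbx5-/+ 1 among them.

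Id2, a target that encodes an inhibitor of basic helix-loop-helix factors, was at 13.68, 14.36, 14.93 and 14.44 at its brightest probe in Tbx5-/+ 1, 5, 6 and 7, against 14.01 to 14.14 in wild-type, a difference of 0.25 (SE 0.25). At its other probe, further 5′, it was at 12.78, 12.46, 12.07 and 12.12 in these arrays and at 13.34, 13.38, 12.63 and 13.10 in wild-type 1, 5, 6 and 7, a difference of -0.75 (SE 0.24, limma adjusted p = 0.168). The order of Tbx5-/+ 1 and 6 was thus opposite at the 2 probes. Without Tbx5-/+ 1 the brightest Id2 probe differed by 0.48 (limma adjusted p = 0.0866) and the other by -0.89.

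Bmpr2 differed by 0.53 at its brightest probe, and by -0.53 at a probe 2337 bases 5′ of it, where the groups did not overlap, and by -0.19 at the third. In Smad5, Id2 and Bmpr2 the brightest probe was the one nearer the 3′ end. The gap between the probes was wider in Tbx5-/+ by 1.01 in Id2 and by 1.06 in Bmpr2, with exact two-sided permutation p of 0.0857 and 0.2, where the smallest possible is 0.0286. With the 3′ minus 5′ gap of the arrays as a covariate, the lower probes of Smad5, Smad4 and Id2 differed by -0.51, -0.06 and -0.29. With the replicate block these probes had a limma adjusted p of 0.0371 (Smad5), 0.0347 (Smad4) and 0.0406 (Id2), within 0.00815 to 0.649, 0.0214 to 0.967 and 0.0332 to 0.668 over their alternatives. Of these probes, that of Smad5 had entered the test only through the wild-type arrays. In Smad1 too the probe further 5′ had the lower difference, and there it was the brightest. In Smad3 and Id4 the lower difference was instead at the probe nearer the 3′ end (-0.93 against -0.55 in Smad3 and -0.72 against -0.18 in Id4).

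**Figure D4:**
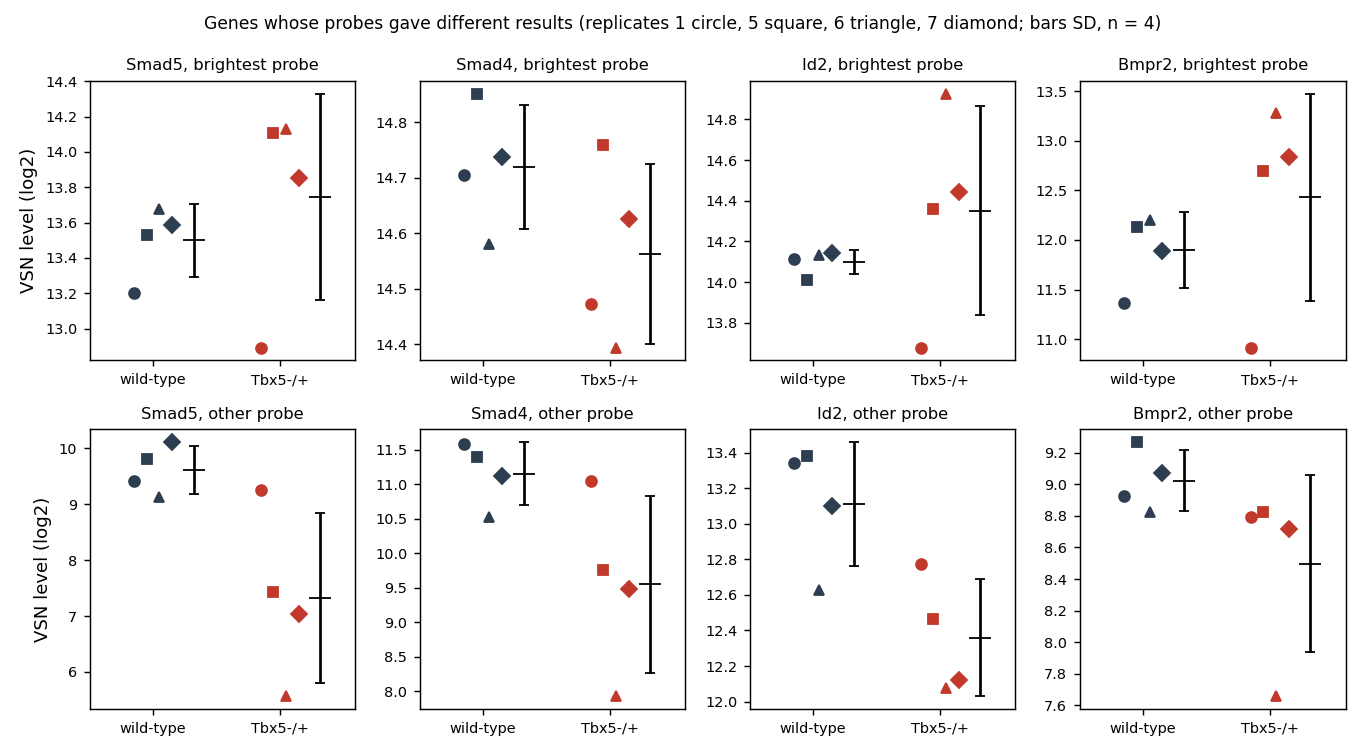
Level in each sample (y axis, log2 after VSN) at the brightest probe (upper row) and at the tested probe with the lowest difference (lower row) of Smad5, Smad4, Id2 and Bmpr2, in wild-type and Tbx5-/+ (x axis). In Smad5, Id2 and Bmpr2 the Tbx5-/+ arrays 5, 6 and 7 lie above the wild-type arrays in the upper row and below them in the lower row.

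The other target genes were tested at their brightest probes. Id1 was at 13.41, 12.99, 13.19 and 13.41 in Tbx5-/+ 1, 5, 6 and 7 and at 13.24, 13.07, 13.39 and 13.12 in wild-type 1, 5, 6 and 7. The groups were mixed throughout, with a difference of 0.04 (SE 0.18) that its second probe gave as 0.09. Id3 differed by 0.11 (SE 0.22) and Id4 by -0.18 (SE 0.43). Msx1 and Msx2, homeobox genes induced by BMP in many mesenchymes, differed by -0.84 (SE 0.53) and -0.33 (SE 0.40), and Msx1 was at 8.08 in Tbx5-/+ 6 and at 10.54 in Tbx5-/+ 1, which lay in the wild-type range of 9.96 to 11.23. With all 8 arrays and no block or covariate, 0 of the 6 target genes had an unadjusted limma p under 0.05 (brightest probes). With the gap covariate Id4 and Msx2 passed it and were higher, at 0.96 and 0.73. Msx1 passed it with the replicate block. Without Tbx5-/+ 1, Msx2 passed it at -0.71 and Id2 at 0.48, so that Msx2 passed in both directions.

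Of the secreted antagonists only noggin (Nog) was tested. It passed the background mark on 3 of 4 arrays of Tbx5-/+ and 4 of 4 of wild-type and differed by -0.24 (SE 0.42). Chordin (Chrd) and follistatin (Fst) passed the background mark on 1 array of Tbx5-/+ and 3 of wild-type each, and gremlin (Grem1) on 0 and 3. Fst was at 8.53 in Tbx5-/+ 1 and at 5.51 to 5.54 in the other Tbx5-/+ arrays.

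**Figure D5:**
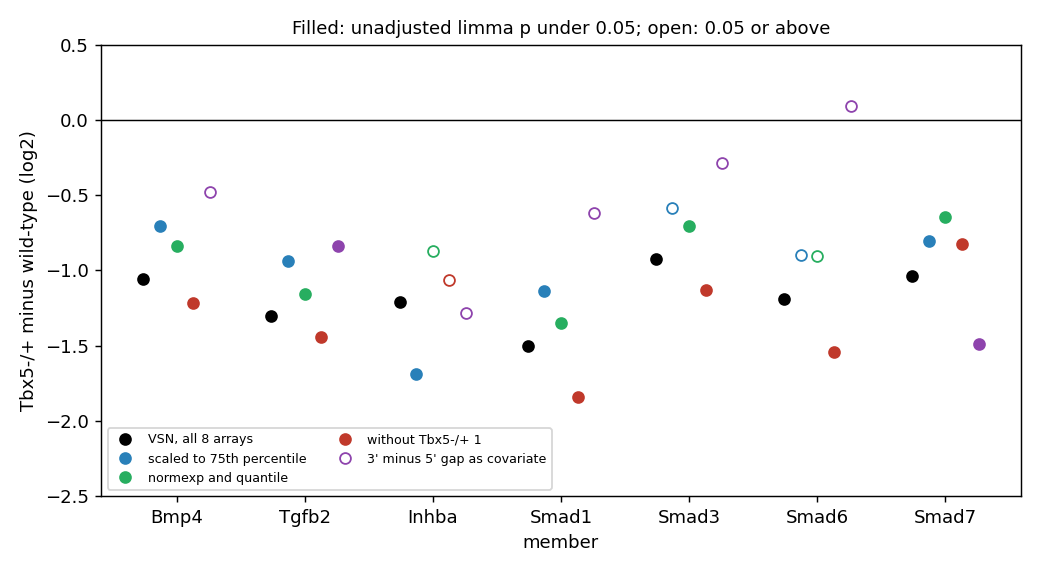
Difference of the 7 members named by the rule (x axis), Tbx5-/+ minus wild-type on the log2 scale (y axis), under 5 ways of processing; filled points have an unadjusted limma p under 0.05. With the 3′ minus 5′ gap as a covariate only Tgfb2 and Smad7 stayed under that p, and Smad6 moved to 0.10.

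A further 66 genes of the pathway were listed by role, and 46 of them were tested. Of these 0 passed an adjusted limma p of 0.05. At an unadjusted p under 0.05, 8 (17.4%) were lower and 1 (2.17%) was higher in Tbx5-/+, beside 15.4% and 4.11% of all genes, and the median difference was -0.22. Nedd4l, 1 of the 8, was well above background on 2 of 4 Tbx5-/+ arrays and entered only through wild-type. With the filter set to all 8 arrays, 7 of 38 were lower, beside 15% of genes. The 3 with the smallest p on the lower side were the T-box gene Tbx3, a BMP target, at -1.08 (SE 0.27), the ubiquitin ligase Smurf1, which marks Smads and receptors for degradation, at -1.28 (SE 0.35), and the endothelial coreceptor endoglin (Eng) at -0.93 (SE 0.30). In these 3 genes the groups did not overlap. With the replicate block 5 genes of this list passed the adjusted limma p, beside 8.67% of all genes, and Tbx3, Smurf1, Eng and Chrdl1 were among them. Leaving out Tbx5-/+ 1, the number was also 5, beside 17.6%. Over 17 alternatives Tbx3 kept an unadjusted limma p under 0.05 in each, and Smurf1, Eng and Chrdl1 each in 16. The differences nearest 0 were -0.70 for Smurf1, -0.44 for Eng and 0.28 for Chrdl1. On the higher side were the BMP antagonist Chrdl1 at 1.32 (SE 0.39), whose groups overlapped, and, without passing an unadjusted p of 0.05, Ltbp2 at 0.31 and Zfyve9 at 0.34. Tbx5-/+ 1 had the lowest Chrdl1 level of its group, 8.98, beside 9.91 to 11.11 in the other Tbx5-/+ arrays and 8.52 to 9.08 in wild-type.

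Promoter windows of 250 bases before the start of a gene were matched for 27 of 40 members (32 windows, RefSeq, GRCm38.p6) and searched on both strands for GGCGCC, a GC-rich site that BMP Smads can bind, and AGGTGT, a T-box site. GGCGCC was in 8 of 32 windows (25%) and in 9.59% of 32851 windows of all genes, and AGGTGT in 2 of 32 (6.25%) and in 11.8%. The windows of Bmp4, Tgfb2, Inhba, Smad1, Smad3 and Smad6 held neither set of letters. That of Id2, a known direct BMP target, held GGCGCC, and is shown with these letters in capitals, 5′ to 3′ on the minus strand of chr12:25096093-25096342.
Id2: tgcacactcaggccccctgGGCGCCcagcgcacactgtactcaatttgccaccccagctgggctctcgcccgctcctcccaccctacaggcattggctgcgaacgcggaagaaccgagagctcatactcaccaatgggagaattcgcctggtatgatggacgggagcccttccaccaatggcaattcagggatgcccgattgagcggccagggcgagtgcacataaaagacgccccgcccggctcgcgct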

How the data were processed

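Cy3-labelled cRNA of each of 8 pools was hybridized to 1-colour Agilent whole mouse genome arrays with 60-base probes annotated on mm9. Per the file headers, the deposited scanner files hold intensity values from Agilent Feature Extraction 10.5.1.1. The authors also deposited a table of log2 values, corrected for background and put on a common scale by variance stabilization (VSN). Values were computed here from the scanner files: the mean signal of a spot was taken less its median local background, outlier spots were dropped, repeated spots averaged, and VSN was programmed in R 4.3.3 (90% of probes kept in each of 7 iterations). On every array Pearson's r with the authors' table, across 22405 probes, was at least 0.9999.

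The 20028 probes marked well above background on every array of a group were tested two-sided with limma 3.58.1 (lmFit, eBayes) without covariates, with Benjamini-Hochberg adjustment over all of them and a threshold of 0.05. A gene is represented by its brightest tested probe. A member was described sample by sample when that probe had an unadjusted p under 0.05 or groups without overlap. Values by sample of other members, among them Bmp2, Acvr2b, Id1, Smad5 and Id2, were given outside this rule. Single quantities were tested exactly over the 70 assignments of the arrays (smallest p 0.0286). The members and lists were chosen with earlier results of these data known. The number of arrays limits the precision. The steps were tested on simulated data. SAM, the test of the study's methods, was not run.

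Pairing was checked on the deviations from the group means, over the tested probes: pools with the same embryo number in their titles correlated by 0.438 (number 1), 0.400 (5), 0.593 (6) and 0.137 (7), while Tbx5-/+ 7 correlated more with wild-type 6 (0.372). The numbers were therefore also used as a block. Array 1 and array 2 of the titles are 2 slides, each with both groups, and were used as another block. The other alternatives were percentile scaling of processed signals, normexp (offset 50) with quantile normalization, the authors' table, other filters, the mean of a gene's probes and leaving out each array. The 3′ minus 5′ gap as a covariate was added after seeing the data. The result of 1 marker list is not reported here.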

Additional observations from a re-analysis of the deposited data

Results flagged for a closer look

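In 66 groups of 4 arrays (33 members, 2 genotypes), 7 held an array whose distance to the nearest other array took up more of the group's range than Dixon's critical value for 4 arrays. Chance flags about 1 in 20 groups. In wild-type these were number 1 for Bmp2 (8.98, above the others of its group), number 6 for Bmp4 (11.85, the next at 12.22), number 5 for Inhba (8.53, the next at 6.89), number 6 for Tgfbr1 (12.40, the next at 12.72) and number 5 for Acvr2a (7.66, the next at 7.52). In Tbx5-/+ they were number 6 for Tgfb2 (11.01, the next at 12.12) and number 1 for Acvr1 (10.90, the next at 10.64).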

How the results depend on the processing

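Over 17 alternatives, Bmp4, Tgfb2, Inhba (16), Smad1, Smad3 and Smad7 kept their direction, and Tgfb2 and Smad7 kept an unadjusted p under 0.05 in each. With the 3′ minus 5′ gap as a covariate, Smad6 reversed to 0.10 and Ltbp2 to -0.069; 4 members were then lower and 2 higher at an unadjusted p. The replicate block (pairing by number) gave 6 members called, 12 lower at an unadjusted p, and 13 lower genes of the pathway list, with 5 genes of that list past the adjusted p; it also brought the second probes of Smad5, Smad4 and Id2 past the adjusted p, and no other probe or gene described by its values. Leaving out 1 array gave 0 to 7 members called (7 without Tbx5-/+ 1), 0 to 4 higher, and 4 to 11 lower and 1 to 3 higher genes of the pathway list. Percentile scaling gave 1 higher member and 4 lower pathway genes, and quantile normalization 3. The members' median relative to all genes was -0.20 with VSN, -0.25 to -0.10 leaving out 1 array and -0.00097 with the gap covariate. Of the 26 other tested members, 20 took the other sign under at least 1 alternative. The causes were not tested. Values near background (Inhba, Bmp2, Nog and the second Smad5 probe in Tbx5-/+) are limited by their signal.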
